A study of Chlorocebus sabaeus with 3 samples.

Results

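Genes that move iron and copper were read in 3 tissues of the ocular surface of the vervet monkey, the limbus, the conjunctiva, and the cornea. The list held 10 genes: TF, TFRC, STEAP1, STEAP4, FTH1, FTL, SLC40A1, CP, HEPH, and LCN2. It was chosen in part by measured values of these arrays, since CP and LCN2 were picked on their highest level in the conjunctiva and STEAP1 on its highest level in the limbus. The levels of these 3 genes are therefore a description. Every probe set whose only gene symbol is on the list was read, also where its values were low. A probe set is a group of short DNA probes on the array that together report 1 transcript. This gave 23 of the 54675 probe sets of the array, for 9 of the 10 genes and out of 19775 genes with a symbol of their own. FTH1, which encodes the heavy chain of ferritin, has no value here.

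Iron travels in blood and tears bound to transferrin (TF) and enters cells through the transferrin receptor (TFRC). In the endosome it is reduced by a metalloreductase of the STEAP family, crosses into the cytosol, and is used or stored in ferritin, a shell of light chains (FTL) and heavy chains (FTH1). Surplus iron leaves through ferroportin (SLC40A1), and a copper-containing ferroxidase, ceruloplasmin (CP) or hephaestin (HEPH), oxidizes it for loading onto transferrin. Iron regulatory proteins bind the messenger RNAs of this pathway and, when iron is low, stabilize that of TFRC and hold back translation of ferritin and ferroportin. Lipocalin 2 (LCN2) takes up bacterial siderophores, the small molecules with which microbes capture iron, and is an antimicrobial protein of mucosal surfaces and tears.

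There was 1 array for each of the 3 tissues, hybridized with amplified total RNA on a human expression array. The animals carried no treatment or genotype in the labels, the study gives their ages only as a range, and it states that the tissues came from the same eye. The limbus sample was the rim of limbal epithelium with the stroma beneath it, the conjunctiva sample held the underlying Tenon tissue, and the cornea sample was the central epithelium with part of its stroma. Without replicate arrays no difference could be set against a replicate error, no p-value is given, and the other probe sets of a gene are the only internal check. The values are intensities on a linear scale after RMA normalization, which corrects background and brings arrays to a common distribution. A value of at least 100 is used below as a mark of a bright probe set. The probes were designed on human sequence, so a level is compared between tissues within a probe set and never between genes. A summed level adds the linear values of the genes of a list within 1 tissue, so its brightest genes weigh most.

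The limbus array had a median value of 49.0, the conjunctiva array one of 50.7, and the cornea array one of 48.8. Marker genes of the cornea and the conjunctiva were mostly highest in the array of that label. The cornea exceeded both other tissues by 2-fold or more for 4 of 6 corneal epithelium genes and 3 of 6 keratocyte genes, beside 1.89% of all genes. The conjunctiva did so for 4 of 8 goblet cell and mucosal genes, beside 1.68% of all genes. KRT13 and KRT4 of that list were highest in the limbus, KRT13 by more than 2-fold over both other tissues. The other KRT4 probe set was not highest in the limbus. No list of limbal epithelium markers was read. The spiked hybridization controls were not level across arrays, with a mean of 1836 in the limbus, 2687 in the conjunctiva, and 3149 in the cornea. The GAPDH control probe sets gave a 3′ over 5′ ratio of 3.12, 3.83, and 4.58 in the same order. Those of ACTB gave larger ratios in another order of tissues, at 11.8, 10.3, and 11.2. The part of these differences in the results was not tested.

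The transcripts of the transferrin receptor and of ferroportin stood in opposite order in the cornea and the conjunctiva. TFRC was 772 in the limbus, 349.7 in the conjunctiva, and 2703 in the cornea on its brightest probe set. The next probe set gave 840.2, 290.4, and 2791 in the same order. On both, the cornea was highest and the conjunctiva lowest, with the limbus between them. The conjunctiva was at 0.129 and 0.104 of the cornea, and the limbus at 0.286 and 0.301 of it. The limbus was 2.21-fold and 2.89-fold above the conjunctiva. The other 3 TFRC probe sets stayed at 89.8 or lower and spanned at most 1.35-fold between tissues, although the cornea was the highest tissue on these as well. Among the 11003 genes that reached 100 in any tissue, TFRC had the 76th lowest conjunctiva minus cornea difference, at -2.95 on the log2 scale.

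SLC40A1, the only known iron exporter of mammalian cells, was 319 in the limbus, 817 in the conjunctiva, and 89.6 in the cornea. Its order was the reverse of that of TFRC. The limbus was at 0.391 of the conjunctiva and 3.56-fold above the cornea, and the conjunctiva exceeded the cornea 9.12-fold. The other SLC40A1 probe set was also highest in the conjunctiva, at 69.5, 83.4, and 65.0 in the limbus, the conjunctiva, and the cornea, but the tissues differed by only 1.28-fold there. Ferroportin is abundant in macrophages, and vessels and macrophages are present in conjunctival stroma. Of 9 macrophage genes measured, 8 were highest in the conjunctiva. None of the 9 was 2-fold above both other tissues, and their summed level was 729.5 in the limbus, 996 in the conjunctiva, and 536 in the cornea. Among these genes 4 (MRC1, C1QA, C1QB, and ITGAM) were 2.30-fold to 4.86-fold higher in the conjunctiva than in the cornea. The mannose receptor MRC1 had the order of SLC40A1, at 79.4, 115, and 23.7 in the limbus, the conjunctiva, and the cornea, and the scavenger receptor CD163 was at 44.2, 46.9, and 40.3. Of 8 blood vessel endothelium genes, 5 were highest in the conjunctiva and 3 in the limbus, and their summed level was 1597 in the limbus, 2355 in the conjunctiva, and 578 in the cornea. The part of these cells in the SLC40A1 result was not tested. In whole tissue, a larger number of cells of a type and more RNA per cell cannot be told apart, here and in the results that follow.

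TF, the iron carrier of plasma and tears, had 4 probe sets and differed little between tissues. The brightest was at 143 in the limbus, 116 in the conjunctiva, and 86.3 in the cornea, a span of 1.65-fold. The other TF probe sets reached at most 89.8. The limbus was highest on 2 of the 4, the conjunctiva on 1, and the cornea on 1, and no TF probe set differed by 2-fold between any pair of tissues.

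The metalloreductase relatives STEAP1 and STEAP4 had opposite positions in the limbus. STEAP1 was 316 in the limbus, 102 in the conjunctiva, and 24.2 in the cornea, a limbus value 3.10-fold that of the conjunctiva and 13.1-fold that of the cornea. The level of the conjunctiva was 4.22-fold above that of the cornea. The cornea value lies at the lower quartile of its array (23.8), and with a pseudocount of 32 the limbus minus cornea difference was 2.63 on the log2 scale in place of 3.71. STEAP4, a metalloreductase that also responds to inflammation and nutrients in mouse tissues, was 60.2 in the limbus, 129.9 in the conjunctiva, and 153 in the cornea. Its limbus value was at 0.463 of the conjunctiva and 0.393 of the cornea, while the conjunctiva was at 0.849 of the cornea. The limbus minus conjunctiva difference of -1.11 on the log2 scale was under 2-fold in 3 of 6 alternatives (-0.56 to -0.81), and the limbus minus cornea difference of -1.35 in 2 of 6 (-0.57 and -0.90). The second STEAP4 probe set was dim, at 16.4, 23.4, and 22.5 in the same order, and was lowest in the limbus as well. STEAP1 has a single named probe set, so no other value could be set beside it. Unlike STEAP4, it lacks the oxidoreductase domain that supplies electrons in the other members of the family. In the vervet gene annotation STEAP1 lies next to STEAP2, with 0 protein-coding genes between them, and 2 protein-coding genes lie between STEAP1 and STEAP4. Its neighbour STEAP2 was 78.1 in the limbus, 69.8 in the conjunctiva, and 39.6 in the cornea. That array value is highest in the limbus and under 100 in every tissue. STEAP3, the main endosomal ferrireductase of red cell precursors, was 77.9, 65.5, and 54.4 in the same order.

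Melanocyte genes were also highest in the limbus. Of 6 measured, 5 were highest there and 3, TYRP1, MLANA, and MITF, were 2-fold above both other tissues. Their summed level was 1967 in the limbus, 964 in the conjunctiva, and 545 in the cornea. Among the 5 genes whose 3-tissue pattern was nearest to that of STEAP1 were the mucosal keratins KRT13 and KRT4 and the melanocyte antigen MLANA. The part of either cell type in the STEAP1 level was not tested.

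FTL, the ferritin light chain, was bright on both of its probe sets and highest in the conjunctiva. The brighter was at 4119 in the limbus, 6942 in the conjunctiva, and 3852 in the cornea. The other was at 2336, 3391, and 1644 in the same order. The conjunctiva was 1.80-fold and 2.06-fold above the cornea, and the limbus was at 0.593 and 0.689 of the conjunctiva. The limbus and the cornea were closer, at a ratio of 1.07 and 1.42. Both probe sets are of a design that may also bind copies of similar sequence, and ferritin has many such copies in primate genomes, so the source of the signal is uncertain.

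CP, the copper-carrying ferroxidase of plasma, spanned a larger range than any other gene of the list. On its brightest probe set it was 1729.8 in the limbus, 8871 in the conjunctiva, and 49.8 in the cornea. The second gave 801, 5525, and 41.2 in the same order, and the third gave 71.0, 271, and 17.6. On all 3 the conjunctiva exceeded both other tissues by more than 2-fold. The conjunctiva was 178-fold, 134-fold, and 15.4-fold above the cornea on these, and the limbus 34.7-fold, 19.4-fold, and 4.03-fold above it. Against the conjunctiva the limbus was at 0.195, 0.145, and 0.262. The fourth CP probe set was dim, at 21.9, 29.1, and 20.6, and kept only the order of the tissues. The cornea values of all 4 probe sets lie near or under the array median of 48.8, so the size of the CP ratios rests on a low value. Of all 11003 genes that reached 100, none had a larger conjunctiva minus cornea difference than CP, and 3 had a larger limbus minus cornea difference.

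Plasma CP comes from the liver. Of 11 liver and plasma protein genes, none was 2-fold above both other tissues anywhere, and their summed level was 519 in the limbus, 492 in the conjunctiva, and 645 in the cornea. Albumin (ALB) was at 19.0, 16.5, and 18.7 in the same order, under the lower quartile of each array. The arrays read RNA, so the CP protein of plasma is not measured here. The part of RNA from liver or blood cells in the CP level was not tested. HEPH, the membrane-bound relative of CP, was dim everywhere. The first of its probe sets gave 17.1 in the limbus, 22 in the conjunctiva, and 22.9 in the cornea, and the other gave 15.3, 19.9, and 26.3 in the same order. The limbus was the lowest tissue on both, and all of these values lie near or under the lower quartile of the arrays, which was 23.7 to 24.5.

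LCN2 had a single probe set, at 541 in the limbus, 7557 in the conjunctiva, and 132 in the cornea. The limbus was at 0.0716 of the conjunctiva and 4.09-fold above the cornea, and the conjunctiva was 57.2-fold above the cornea. Only 2 of the 11003 genes that reached 100 had a larger conjunctiva minus cornea difference. LCN2 is made by mucosal and glandular epithelium and by neutrophils. Of 8 neutrophil genes, none was 2-fold above both other tissues, and their summed level was 339 in the limbus, 372 in the conjunctiva, and 343 in the cornea. Only 1 of the 8 reached 100 in a tissue, so most of these genes were read from low values. Gland genes had a high conjunctiva value as well. For 6 of the 7 measured markers of lacrimal and serous glands the conjunctiva exceeded both other tissues by 2-fold or more, with summed levels of 3399.7 in the limbus, 11193 in the conjunctiva, and 4166 in the cornea. Most of these sums was lysozyme (LYZ), and without it they were 234, 2766, and 258 in the same order. The limbus over cornea ratio, 4.09 for LCN2, ran from 0.457 (SCGB1D1) to 1.38 (LTF) over the 7 gland genes. Apart from LYZ, at 0.810, these genes were under 100 in both tissues, so their ratios rest on low values. Over the 8 goblet cell and mucosal genes the same ratio ran from 0.488 (AGR2) to 19.1 (KRT13). The part of glandular tissue or mucosal epithelium in the LCN2 result was not tested.

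**Figure D1:**
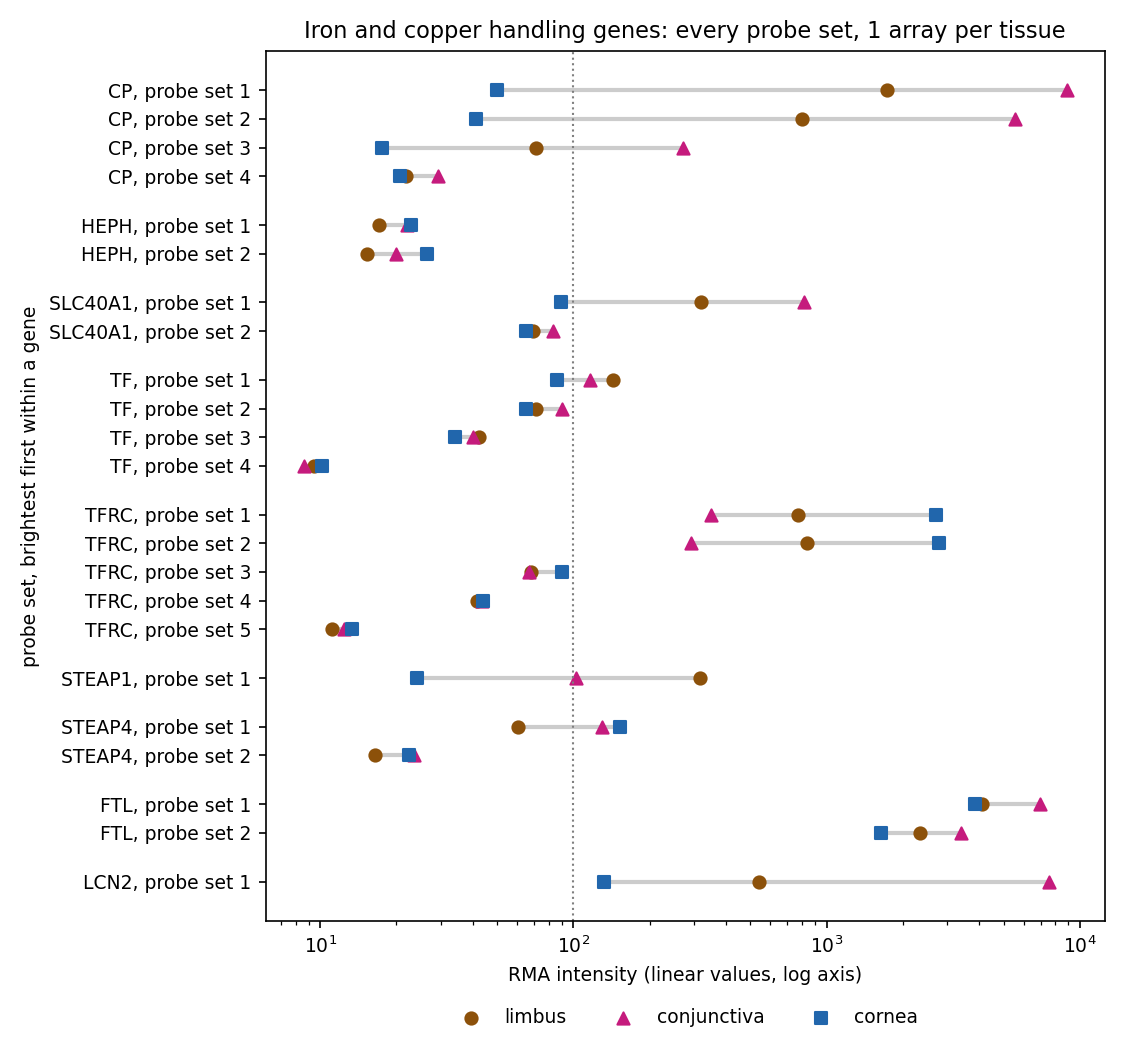
RMA intensity on a log axis for each of the 23 probe sets of the 9 genes measured, in the limbus (circles), the conjunctiva (triangles), and the cornea (squares), from 1 array each; the dotted line marks 100. The 3 bright CP probe sets, LCN2, and the brighter SLC40A1 probe set run up to the conjunctiva, both bright TFRC probe sets run up to the cornea, and STEAP1 runs up to the limbus.

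Bright and dim probe sets of the same gene differed in what they showed. Of the 23 probe sets, 12 reached 100 in a tissue. The limbus was highest for 2 of these, the conjunctiva for 7, and the cornea for 3. Several of them belong to the same gene. By gene, 8 reached 100 on the brightest probe set. The limbus was highest for 2 of the 8, the conjunctiva for 4, and the cornea for 2. Of the 11003 genes that reached 100, the limbus was highest for 22.9%, the conjunctiva for 33.7%, and the cornea for 43.4%. The 11 dim probe sets spanned at most 1.72-fold between tissues. For 8 probe sets 1 tissue exceeded both others by 2-fold or more: 3 of CP, 2 of TFRC, and 1 each of LCN2, SLC40A1, and STEAP1. Since CP, LCN2, and STEAP1 were picked for their peaks, these counts are a description. No share over all probe sets was taken. The probe sets of CP, TFRC, SLC40A1, FTL, and HEPH each shared their highest tissue within the gene, whereas those of TF and STEAP4 did not.

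When each gene was read from its brightest probe set, the limbus exceeded both other tissues by 2-fold or more for 1 of the 9 genes measured (STEAP1), compared with 0.475% of all 19775 genes. In the conjunctiva 3 genes (CP, LCN2, and SLC40A1) passed, compared with 1.68% of all genes, and in the cornea 1 gene (TFRC), compared with 1.89%. Because CP, LCN2, and STEAP1 were picked for these peaks, nothing is read from their part of the counts. Of the 6 other genes measured, 0 passed in the limbus, 1 in the conjunctiva, and 1 in the cornea. The genes measured are also brighter than most, since 8 of the 9 reached 100. Among all genes that did so, the shares were 0.573% in the limbus, 2.63% in the conjunctiva, and 3.05% in the cornea.

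A difference of at least 2-fold between the limbus and the conjunctiva was seen in 6 of the 9 genes, compared with 4.94% of all genes. TFRC and STEAP1 were higher in the limbus (2.62% of all genes), and CP, LCN2, SLC40A1, and STEAP4 were lower there (2.31%). Between the limbus and the cornea the count was again 6 (6.57% of all genes). CP, LCN2, SLC40A1, and STEAP1 were higher in the limbus (4.06%), and TFRC and STEAP4 were lower there (2.51%). Between the conjunctiva and the cornea 5 genes differed (11.0%). CP, LCN2, SLC40A1, and STEAP1 were higher in the conjunctiva (5.68%), and TFRC was lower there (5.31%). With CP, LCN2, and STEAP1 set aside, 3 of the other 6 genes differed between limbus and conjunctiva, 3 between limbus and cornea, and 2 between conjunctiva and cornea. Over these 6 genes the median log2 difference was -0.56 for limbus minus conjunctiva, -0.16 for limbus minus cornea, and 0.18 for conjunctiva minus cornea, beside medians over all genes of -0.04, -0.05, and -0.01. With the picked genes included, the medians of the 9 were -0.75, 0.73, and 0.85, so the sign for limbus minus cornea turned with them.

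**Figure D2:**
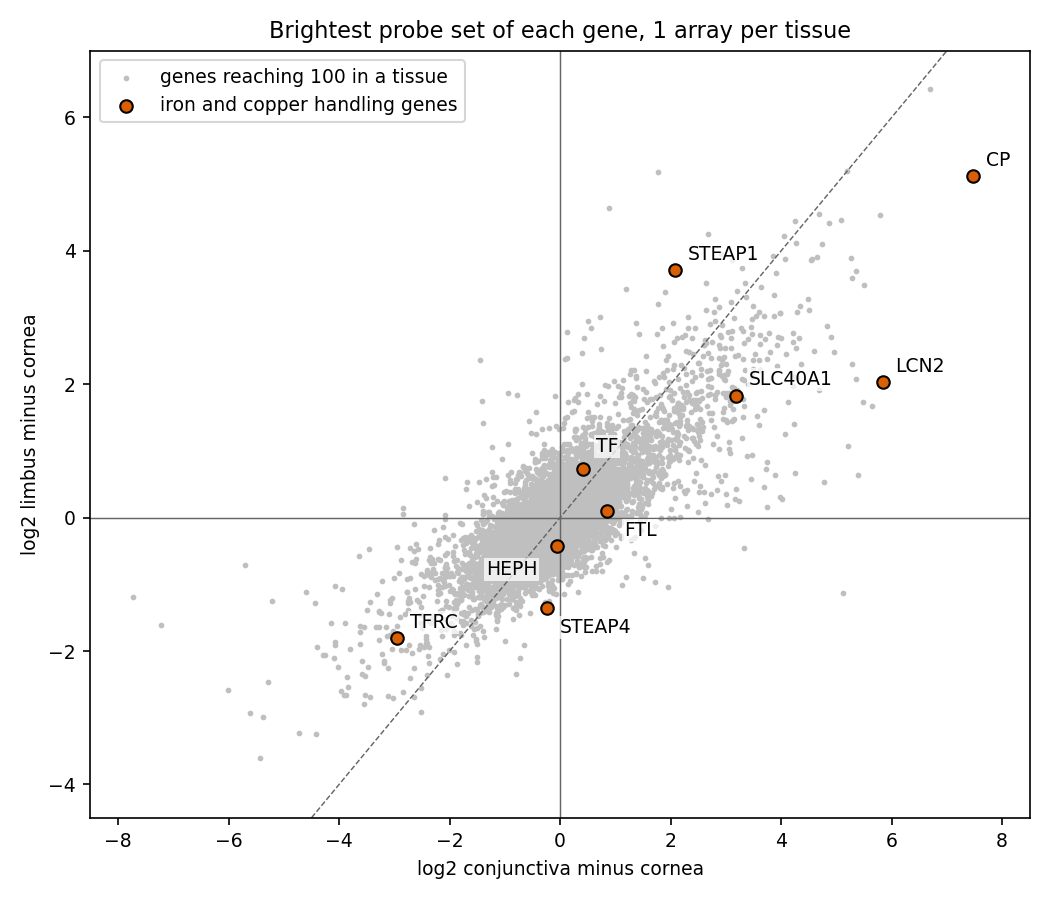
Log2 limbus minus cornea (vertical axis) against log2 conjunctiva minus cornea (horizontal axis) for the brightest probe set of each of the 11003 genes that reached 100 (grey) and of the 9 iron and copper handling genes (orange), from 1 array per tissue. On the dashed line the limbus equals the conjunctiva. CP lies farthest to the right, at 7.48, TFRC lies at the lower left, and STEAP1 is above the dashed line.

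Of the 6 genes not picked for a peak, TFRC and SLC40A1 were 2-fold apart in the conjunctiva and the cornea. In both the limbus lay between, as it did in 85.6% of the 2174 such genes in all. The limbus also lay between for CP and LCN2 and was above both for STEAP1, which their choice by peak tissue bears on, so these are a description. On the log2 scale, with the cornea at 0 and the conjunctiva at 1, the limbus stood at 0.68 for CP, 0.61 for TFRC, 0.57 for SLC40A1, and 0.35 for LCN2, and the median over all such genes was 0.58. The limbus was nearer to the conjunctiva for CP and SLC40A1 and nearer to the cornea for LCN2, also under each of 6 alternatives. For TFRC it was nearer to the conjunctiva as deposited, but nearer to the cornea, at 0.38, when each array was divided by its hybridization controls.

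The other genes of iron and copper handling were read from 9 lists. Lists of iron uptake, storage and sensing, export and hepcidin, extracellular iron binding, heme, mitochondrial iron, copper transport, copper enzymes, and metallothioneins held 122 further genes, of which 110 were measured. By the same 2-fold rule 0 of the 110 stood out in the limbus, 5 (4.55%) in the conjunctiva, and 5 (4.55%) in the cornea, beside the shares of all genes given above. The median log2 difference was -0.02 for limbus minus conjunctiva, -0.09 for limbus minus cornea, and -0.03 for conjunctiva minus cornea.

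Of 12 further genes of iron uptake, SCARA5, a scavenger receptor that binds ferritin light chain in mouse, was 278 in the limbus, 731 in the conjunctiva, and 32 in the cornea. Its order and that of FTL were the same, and all 3 of its probe sets were highest in the conjunctiva. The metal transporter SLC39A8 was at 70.3, 119, and 21.8 in the same order, although none of its other 5 probe sets was highest in the conjunctiva. Among 10 genes of extracellular iron binding, LTF (lactoferrin) was at 59.3 in the limbus, 553 in the conjunctiva, and 43.0 in the cornea. The tear lipocalin LCN1, which also binds siderophores, was at 44.3, 354, and 37.4 in the same order. ITLN1, a lectin of mucosal secretions that has been described as a lactoferrin receptor, was at 66.8, 533, and 40.1. These 3 genes shared with LCN2 a level in the limbus of at most 0.125 of the conjunctiva, but in the cornea and the limbus they stayed under 100.

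Of 7 further genes of iron storage and sensing, the iron sensor FBXL5, which directs the breakdown of iron regulatory protein, was at 396 in the limbus, 158 in the conjunctiva, and 668 in the cornea, the same order as TFRC. HIF1A, the oxygen-sensitive factor that can induce TFRC, was at 2769 in the limbus, 2960.0 in the conjunctiva, and 6883 in the cornea. Its lowest tissue was the limbus, whereas that of TFRC was the conjunctiva. None of 8 further genes of export and its hepcidin axis differed by 2-fold between any pair of tissues, and HAMP itself was at 48.0 in the limbus, 43.0 in the conjunctiva, and 73.3 in the cornea. None of 13 copper transporters and chaperones differed by 2-fold either. Among 15 copper enzymes, PAM, which amidates peptide hormones, was at 2891 in the limbus, 6706 in the conjunctiva, and 682 in the cornea, with all 3 of its probe sets highest in the conjunctiva. The collagen-crosslinking oxidase LOX was at 245, 77.4, and 665 in the same order, and 1 of its 2 other probe sets was highest in the cornea. PAM so had the order of CP, and LOX that of TFRC.

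**Figure D3:**
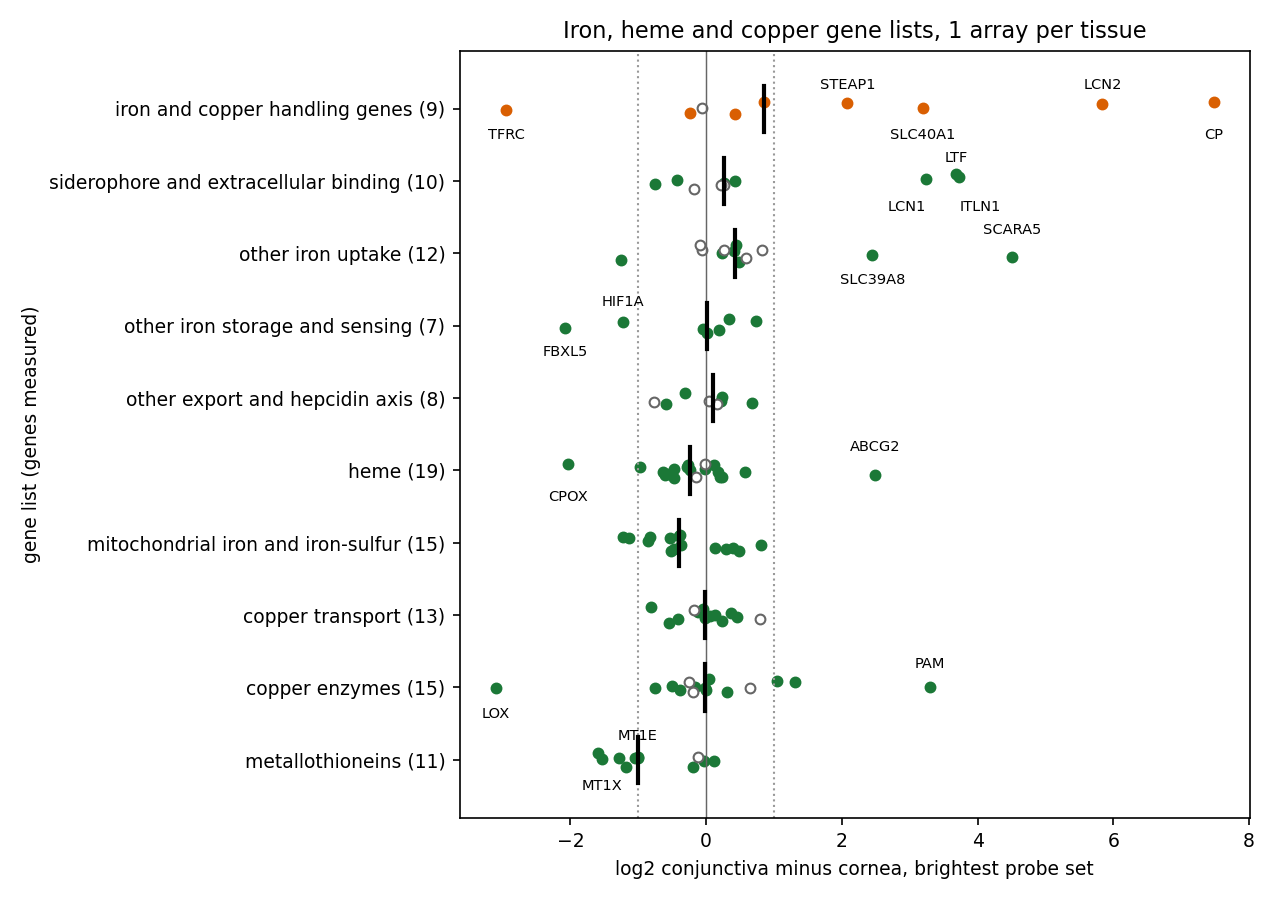
Log2 conjunctiva minus cornea of each gene on its brightest probe set, for the 9 iron and copper handling genes (orange) and the lists of other genes (green), from 1 array per tissue. Open circles mark genes that stayed under 100 in every tissue, black bars are list medians, dotted lines mark 2-fold, with the number measured in parentheses; in the copper transport and hepcidin lists no gene passes the dotted lines.

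The genes with the most similar pattern were sought for the 6 genes that reached 100 and spanned at least 2-fold. The measure was the Euclidean distance between log2 values centred on their mean over the 3 tissues, among 11002 other genes; over so few points it describes these arrays only. For TFRC the nearest were MAP2, ELAPOR2, GDAP1, PALS2, and PLA2G4A, at distances of 0.051 to 0.119. For SLC40A1 they were ISLR, POU2AF3, SIX4, B2M, and the endothelial gene VWF, at 0.032 to 0.109. VWF was at 407 in the limbus, 939.5 in the conjunctiva, and 106 in the cornea. For STEAP1 they were GPX2, MLANA, KRT13, KRT4, and VLDLR, at 0.233 to 0.605, and for STEAP4 they were KRT18, RPLP2, ARHGEF6, ARHGAP30, and C16orf86, at 0.064 to 0.157. LCN2 was nearest to PLA2G2A, a secreted antibacterial phospholipase, at 0.258, followed by IGLC1, CLCA1, PPP1R9A, and GUSBP11 up to 0.687. PLA2G2A was at 237 in the limbus, 3741 in the conjunctiva, and 74.7 in the cornea. CP had no close neighbour: PTGER4, COL3A1, KRT14, RBPMS, and KYNU stood at 1.207 to 1.567. CP and LCN2 themselves were 2.182 apart, and 20 genes were nearer to CP than LCN2 was.

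Corneal epithelium genes followed the order of TFRC. Of 6 such genes, 6 were highest in the cornea, and their summed level was 14891 in the limbus, 5554 in the conjunctiva, and 38976 in the cornea. Among 5 red cell genes measured, 1 (HBB) passed the 2-fold rule, in the conjunctiva, at 132 in the limbus, 414 in the conjunctiva, and 149.6 in the cornea. The part of epithelial, stromal, or red cells in the TFRC level was not tested.

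The differences of the 9 genes were recomputed with 6 other ways of scaling the arrays, handling low values, and choosing a probe set. CP, LCN2, and STEAP1 stayed at least 2-fold apart in all 3 comparisons under all 6. These genes were picked for their peaks, so this is a description. LCN2 and STEAP1 have a single probe set each, so the choice of probe set could not change them. For TFRC the median over its probe sets, most of them dim, left a limbus minus conjunctiva difference of 0.03, a limbus minus cornea difference of -0.40, and a conjunctiva minus cornea difference of -0.43. With each array divided by its hybridization controls, and also with the median over probe sets, SLC40A1 was -0.81 for limbus minus conjunctiva, in place of -1.36, and no longer 2-fold apart. The median over probe sets also left 0.97 for limbus minus cornea, in place of 1.83.

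**Figure D4:**
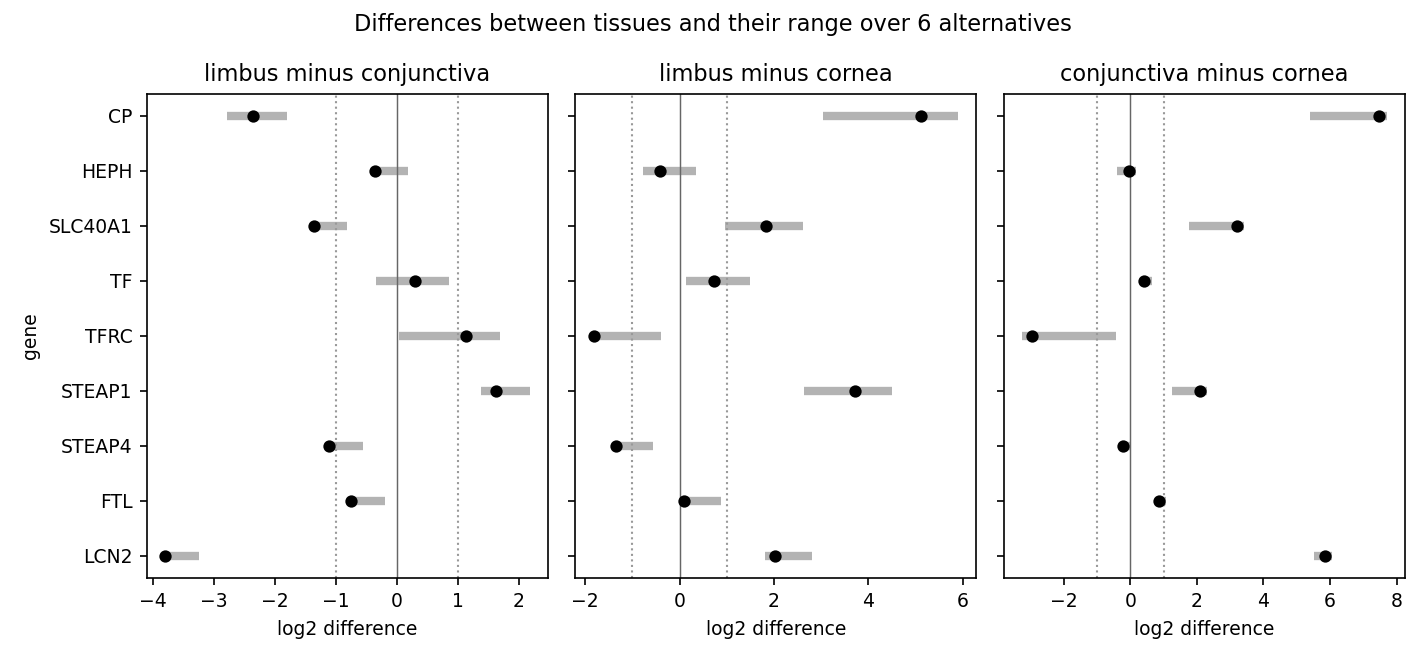
Log2 differences between tissues (points) of the 9 genes measured and their range over 6 alternatives (grey bars), from 1 array per tissue; dotted lines mark 2-fold. For TFRC the bar reaches -0.43 for conjunctiva minus cornea, and for TF it crosses 0 for limbus minus conjunctiva.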

How the data were processed

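The authors hybridized amplified RNA of the limbus, the conjunctiva, and the cornea to Affymetrix Human U133 Plus 2.0 arrays, with 1 array per tissue. Each array was normalized by justRMA jointly with a constant set of other arrays. RMA is named in the submitters' processing notes, and its version is not given in the sources used here. The deposited table holds 1 linear intensity for each of 54675 probe sets per array, with 0 missing, and its values were used as they stand. An array annotation named 41097 probe sets with 1 symbol; 1801 with several symbols and 11777 not named there were left out. Nothing gave the sequences of the genes. No sample belonged to another study (0 further columns).

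The probe set with the largest mean of log2 values stood for its gene. Ratios and log2 differences were taken as limbus over conjunctiva, limbus over cornea, and conjunctiva over cornea. A gene was counted for a tissue when its value there exceeded that of each other tissue by 2-fold or more. No test was possible with 1 array per tissue; the precision is limited by the number of arrays. The genes and lists were chosen with earlier results of these data known. Named outside the 10 genes are those of the lists that reached 100 and were counted for a tissue or spanned at least 4-fold, marker genes, and the 5 nearest genes in pattern; STEAP2, STEAP3, HAMP, and the choice of marker genes shown were made after their values were seen. Alternatives were quantile normalization, scaling by the median or by 18 hybridization controls, a pseudocount of 32, thresholds of 1.5-fold and 3-fold, a minimum of 100, the median of all probe sets of each gene, and leaving out probe sets that may bind several transcripts. The counting rule was checked on simulated arrays. Python 3.11.15, numpy 2.4.6, pandas 2.3.3, and matplotlib 3.10.9 were used.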

Additional observations from a re-analysis of the deposited data

How the results depend on the processing

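Of the alternatives, the median of all probe sets of each gene, dim ones included, changed most counts: it left 0 genes of the list counted for the cornea in place of 1, 3 apart between the limbus and the conjunctiva in place of 6, and 3 apart between the limbus and the cornea in place of 6; CP, LCN2, and STEAP1 stayed apart in both. A threshold of 3-fold left the same 3, each picked for its peak, apart between limbus and conjunctiva. For the 110 other genes the median gave 1 for the limbus (TYR) in place of 0 and 3 for the cornea in place of 5, and quantile normalization gave 2 for the cornea. The count of 1 for the limbus (STEAP1) was the same under all 9 alternatives. STEAP1 was picked for this peak and has a single probe set. The count of 3 for the conjunctiva moved between 2 and 4. It was 2 with hybridization controls, the median of probe sets, and 3-fold, each without SLC40A1, which left 0 of the 6 genes not picked for a peak. Of 162 recomputed differences, 23 moved by more than 1.5-fold and 0 of those of at least 2-fold changed sign. Division by the hybridization controls moved the median of all genes to 0.515 for limbus minus conjunctiva, 0.733 for limbus minus cornea, and 0.221 for conjunctiva minus cornea, and shifted every gene equally. No replicate could be left out, and no paired analysis was possible because each tissue has 1 array. Ratios of values under 100 are the least certain.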

Other observations

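Metallothioneins, small proteins that bind copper and zinc, were mostly highest in the cornea. Of 11 genes of this list, 10 reached 100, and 8 of these were highest there, beside 43.4% of all genes that reached 100. At least 2-fold lower in the conjunctiva than in the cornea were 7 of the 11, beside 5.31% of all genes. The list also holds MTF1, a regulator of these genes and not a metallothionein, which was highest in the limbus. The median log2 difference was 0.43 for limbus minus conjunctiva, -0.63 for limbus minus cornea, and -1.01 for conjunctiva minus cornea. MT1X was at 1981 in the limbus, 1409 in the conjunctiva, and 4089 in the cornea, and MT1E at 556, 574, and 1155 in the same order. These 2 were the metallothioneins counted for the cornea, and neither was after quantile normalization of the arrays. The other MT1E probe set was not highest in the cornea. The genes of this family are near-identical in sequence, so a probe set may report several of them.

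Of 19 heme genes, 1 was counted for the cornea, beside 1.89% of all genes, and 0 for the limbus or the conjunctiva. Between the conjunctiva and the cornea, 1 was at least 2-fold higher in the conjunctiva (5.68% of all genes) and 1 lower (5.31%). The gene counted was CPOX, an enzyme of the later steps of heme synthesis, at 159 in the limbus, 199.7 in the conjunctiva, and 821 in the cornea. The transporter ABCG2, which can export porphyrins, was at 75, 124, and 22 in the same order. Of 15 genes of mitochondrial iron and iron-sulfur clusters, none was counted for a tissue. At least 2-fold lower in the conjunctiva than in the cornea were 2 of the 15, beside 5.31% of all genes. The median log2 difference of this list, conjunctiva minus cornea, was -0.40.

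Acute phase and innate response genes, with which CP and LCN2 are often measured, were mostly highest in the conjunctiva. Of 18 measured, the limbus was highest for 3, the conjunctiva for 14, and the cornea for 1. Among the 14 that reached 100, the conjunctiva was highest for 11, beside 33.7% of all genes that reached 100. Many of these differences were small. Only C3 and CFB were 2-fold above both other tissues in the conjunctiva, and only PI3 in the limbus. The shares of all genes were 1.68% and 0.475%. The complement component C3 was at 116 in the limbus, 2218 in the conjunctiva, and 80.5 in the cornea. The complement factor CFB was at 1016 in the limbus, 4219 in the conjunctiva, and 205 in the cornea. The protease inhibitors SERPINA1 and SLPI stood at 706 and 361 in the limbus, at 1307 and 582 in the conjunctiva, and at 167 and 72.8 in the cornea. S100A9 was at 452 in the limbus, 456 in the conjunctiva, and 75.2 in the cornea. The elastase inhibitor PI3 was highest in the limbus, at 215, 85.1, and 71.3 in the same order, but its other probe set was not highest there.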
